A study of Homo sapiens with 4 samples.

Results

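Chromatin modifiers and remodelers are the enzymes and subunits that write, erase and read marks on histones and DNA or slide nucleosomes along it. They were followed here after knockdown of HRP2 in LP-1, an established cell line from a human multiple myeloma with the t(4;14) translocation. Members were chosen by gene symbol, as every gene or transcript called by the authors whose symbol begins with NSD, SETD, KMT, EZH, KDM, ARID, SMARC, CHD, HDAC, SIRT, KAT, BRD, PHF, DNMT, TET or PRMT (with the numbering of those families). This gave 10 of the 684 genes in the authors' deposited gene table and 30 of the 1040 transcripts in the authors' deposited transcript table. The 30 transcripts belong to 21 genes, of which 4 are also among the 10, so that 27 genes had a value at one level or the other.

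The series compared 2 libraries of LP-1 cells given a lentiviral guide RNA construct against HRP2 with 2 libraries of LP-1 cells given a non-target control construct. Both groups were LP-1 cells labelled as B lymphoblasts of multiple myeloma. The labels do not say whether the guide edited or repressed the gene, whether the cells were a pool or a clone, or whether replicate libraries were grown as separate cultures. The spread behind the Q values may therefore be technical. Each deposited table gives, for knockdown over control, the log2 fold change and a Q value but no standard error. Every Q value in them was under 0.05, which is what called means below. Values per library and depths were not used here, so the fold changes carry no SD. All fold changes and Q values below are those of the authors' deposited tables. Since the called rows are the members, their directions are a description and were not tested.

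HRP2, encoded by HDGFL2, is a chromatin reader whose PWWP domain binds histone H3 methylated at lysine 36. In t(4;14) myeloma the translocation places NSD2, an enzyme that dimethylates that lysine, under the control of an immunoglobulin enhancer. Other members act on other marks: KDM1A removes methyl groups from H3 lysine 4, KDM3A from H3 lysine 9, KMT5B adds them to H4 lysine 20, and the DNMT3 enzymes place methyl groups on DNA. SWI/SNF and CHD proteins use ATP to move nucleosomes. HDAC6 is a mainly cytoplasmic deacetylase of tubulin that carries ubiquitinated protein aggregates to the aggresome, a route used when the proteasome is inhibited.

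The check of the knockdown and the state of the cells can be given only as far as the called rows go. HDGFL2 was lower in the knockdown in the authors' deposited gene table, with a log2 fold change of -1.37 (0.388 times control, Q = 2.99e-13). Of 10 plasma cell or myeloma markers, 3 were in the gene table, all lower in the knockdown, with log2 fold changes of -0.63 for IRF4 (Q = 0.00323), -0.48 for TNFRSF17 (Q = 0.0392) and -0.45 for SDC1 (Q = 0.0446). IRF4 also had called transcripts at -1.04 (Q = 0.0108) and 1.93 (Q = 0.000426). Of 16 markers of other cell types, none was in the gene table, and PECAM1 had a called transcript at 8.64 (Q = 0.0261). Because only called rows carry values, the levels of these markers are not known, and neither the cell type nor an admixture of other cells was tested.

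At the gene level, 7 chromatin genes were higher in the knockdown and 3 were lower, each by a modest amount. The higher genes lay between 0.49 and 0.63 on the log2 scale and the lower ones between -0.71 and -0.63, and none of the 10 reached an absolute log2 fold change of 1. Both histone demethylases called (KDM1A and KDM3A) and both DNA methyltransferases called (DNMT3A and DNMT3B) were higher. The lower genes were HDAC6, the SWI/SNF ATPase gene SMARCA2 and ARID5A. Of all 684 called genes, 361 (52.8%) were higher in the knockdown and 323 (47.2%) lower.

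**Figure D1:**
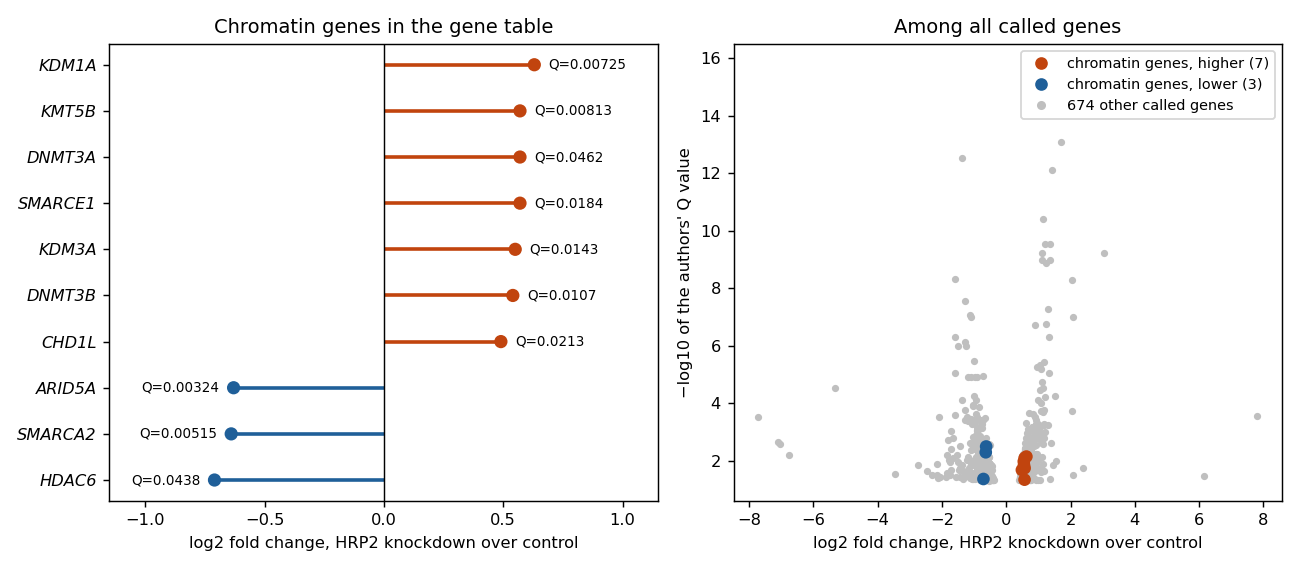
The left panel shows the authors' log2 fold change (HRP2 knockdown over control, horizontal axis) of each of the 10 called chromatin genes with its Q value, and the right panel sets them among all 684 called genes, with the negative log10 of Q on the vertical axis. The 7 higher genes lie within 0.49 to 0.63 and the 3 lower within -0.71 to -0.63, inside the dense low part of the plot. No error bars can be drawn, as values per library were not used.

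The name list deposited with the tables holds 24237 mRNA genes, of which 145 have a matching symbol (BRD3OS and the readthrough locus SETDB2-PHF11 included). The 10 called genes are 6.9% of those 145, where 2.81% of all listed mRNA genes were called. By direction, 4.83% of the matching genes were called higher and 2.07% lower, where 1.49% and 1.32% of all listed mRNA genes were. The list does not say which genes were expressed or tested, and the members were defined by the same calls, so nothing is read from these shares. The remaining 118 matching genes had no row in either table and therefore no value. The median absolute log2 fold change was 0.57 for the 10 genes and 0.70 for all 684 called genes. All chromatin genes (100%) and 78.2% of all called genes changed by less than 1 on the log2 scale. A Q value under 0.01 was found for 4 chromatin genes (40%) and for 255 called genes in all (37.3%). The members nearest to the limit of 0.05 were DNMT3A at a Q value of 0.0462 and HDAC6 at 0.0438, and genes just outside that limit have no row.

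Among the demethylases 2 genes were called, both higher. KDM1A (gene ID 23028, chromosome 1), known as LSD1, the catalytic subunit of CoREST complexes, was at 1.54 times its control level in the authors' deposited gene table (Q = 0.00725, log2 fold change 0.63). KDM3A (gene ID 55818, chromosome 2), a JmjC demethylase of mono- and dimethylated H3 lysine 9 and a known hypoxia-responsive gene, was at 1.46 times its control level (Q = 0.0143, log2 fold change 0.55). The list holds 19 KDM genes.

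The only histone methyltransferase gene called was KMT5B (gene ID 51111, chromosome 11), which encodes an enzyme of H4 lysine 20 di- and trimethylation. In the authors' deposited gene table it was at 1.49 times its control level (Q = 0.00813, log2 fold change 0.57). The other 24 of the 25 listed genes of the NSD, SETD, KMT and EZH families had no row there, NSD2, SETD2 and EZH2 among them, so the size of their change is not known.

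The de novo DNA methyltransferases went the same way. DNMT3A (gene ID 1788, chromosome 2) had a log2 fold change of 0.57 (1.48 times the control level, Q = 0.0462) and DNMT3B (gene ID 1789, chromosome 20) one of 0.54 (1.46 times, Q = 0.0107) in the authors' deposited gene table. Of the 7 listed DNMT and TET genes these were the ones called. DNMT1, the maintenance enzyme, was not in the table.

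Nucleosome remodelers went both ways. SMARCE1 (gene ID 6605, chromosome 17), which encodes the BAF57 subunit of SWI/SNF, was at 1.49 times its control level in the authors' deposited gene table (Q = 0.0184, log2 fold change 0.57). However, 63.4% of the 31-nucleotide words of its longest coding transcript in GENCODE 29 also occur in transcripts of other genes. Reads could be split between them if the annotation used by the authors, which is not given, holds those genes. For each of the other 9 genes the share of such words was under 1%. CHD1L (gene ID 9557, chromosome 1), a remodeler activated by poly(ADP-ribose), was at 1.40 times (log2 fold change 0.49, Q = 0.0213). Its exons overlap those of FMO5 and LINC00624 on the opposite strand and of AC242426.2 on the same strand in GENCODE 29, and whether reads were counted by strand is not given in the sources used here. SMARCA2 (gene ID 6595, chromosome 9), the BRM ATPase that is the alternative to SMARCA4 in SWI/SNF, was at 0.643 times its control level (Q = 0.00515, log2 fold change -0.64). Exons of SMARCA2 overlap AL359076.1 on the opposite strand, and those of SMARCE1 overlap AC073508.3 on the opposite and AC073508.2 on the same strand, where counting by strand would not separate them. ARID5A (gene ID 10865, chromosome 2), an AT-rich interaction domain gene whose product also binds and stabilises IL6 mRNA, was at 0.648 times (log2 fold change -0.63, Q = 0.00324), the smallest Q value of the 10.

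HDAC6 (gene ID 10013, chromosome X) had the largest change of the 10 in either direction. The authors' deposited gene table put it at 0.611 times its control level (Q = 0.0438, log2 fold change -0.71), and it ranked 336 of 684 by absolute log2 fold change. It was the 1 gene called among 18 listed deacetylase and sirtuin genes. The families with no called gene were the KAT acetyltransferases (8 listed), the BRD and PHF readers (27 listed) and the PRMT arginine methyltransferases (8 listed).

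The sequences upstream of 3 members are shown because KDM1A and HDAC6 stand at the ends of the range of fold changes and SMARCA2 was the 1 gene with like values at the gene and transcript level. Each line gives the 250 bases before the first start listed for the gene, 5′ to 3′ on the gene's strand, from RefSeq on GRCh38.p14, which is not the hg19 build named in the submitters' processing notes. CpG dinucleotides, the sites on which DNA methyltransferases act, are in capitals.
KDM1A (chr1:23019218-23019467, plus strand): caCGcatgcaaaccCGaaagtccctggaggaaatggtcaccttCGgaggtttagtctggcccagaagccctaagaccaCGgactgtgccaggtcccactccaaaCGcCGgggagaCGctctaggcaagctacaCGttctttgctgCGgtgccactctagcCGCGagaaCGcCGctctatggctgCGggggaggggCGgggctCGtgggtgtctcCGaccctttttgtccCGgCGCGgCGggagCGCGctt
SMARCA2 (chr9:2015097-2015346, plus strand): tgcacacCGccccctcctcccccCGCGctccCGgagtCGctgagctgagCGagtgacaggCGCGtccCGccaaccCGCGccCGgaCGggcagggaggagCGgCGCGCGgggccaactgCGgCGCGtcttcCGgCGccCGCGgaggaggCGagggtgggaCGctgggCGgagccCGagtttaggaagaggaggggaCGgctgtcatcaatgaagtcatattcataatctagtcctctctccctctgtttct
HDAC6 (chrX:48801817-48802066, plus strand): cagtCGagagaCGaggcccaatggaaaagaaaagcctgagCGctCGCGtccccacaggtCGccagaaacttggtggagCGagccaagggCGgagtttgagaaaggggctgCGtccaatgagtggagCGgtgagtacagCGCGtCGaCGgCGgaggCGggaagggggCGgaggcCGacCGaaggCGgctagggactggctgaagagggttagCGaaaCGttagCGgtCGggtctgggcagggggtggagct

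In these windows KDM1A has 23 CpG dinucleotides, SMARCA2 29 and HDAC6 24. The start used is the outermost one of the gene in RefSeq for KDM1A and SMARCA2, and lies 669 bases inside the gene for HDAC6. All 10 members of the gene table were matched. The start used was the outermost for 5 of them (KDM1A, KMT5B, SMARCE1, SMARCA2 and ARID5A) and lay inside the gene for the other 5, by 107 bases in DNMT3A, 4327 in KDM3A, 17467 in DNMT3B and 69937 in CHD1L. The counts ran from 16 to 39 in 9 members, while the window inside DNMT3B had 3, and the median of the 10 was 23.5. The window of NSD2, which was called at the transcript level alone and is not among the 10, had 50. Over all 27305 promoters of the RefSeq table the median was 11. Among called genes with a promoter, however, the medians were 22 for the 295 higher genes and 23 for the 256 lower genes, so called genes of both directions had CpG counts close to those of the members. Both common cores of the hypoxia response element were searched on both strands. The motif ACGTG was found in 1 member promoter, that of KDM1A, and in 18.7% of all promoters. The other core, spelled GCGTG, was found in the windows of KDM1A, KMT5B, KDM3A and CHD1L, the last 2 inside the gene, and in 31.9% of all promoters. The NSD2 window also holds it. Either core was thus present in 4 of the 10 members, where 43.1% of all promoters had one. A match describes letters in this window and is not evidence of binding.

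With respect to base composition, the median GC content of a gene's coding transcripts in GENCODE 29 was 47.9% over the 7 higher chromatin genes and 57.5% over the 3 lower ones. Over all called genes it was 46.7% for higher and 57.4% for lower genes. ARID5A, at 64.2%, had the highest GC content of the 10 and HDAC6 the next at 57.5%, while SMARCA2, lower in the knockdown, was at 44.9%. DNMT3A and DNMT3B, called higher, were at 55.4% and 54.2%. The part of base composition in the fold changes was not tested.

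**Figure D2:**
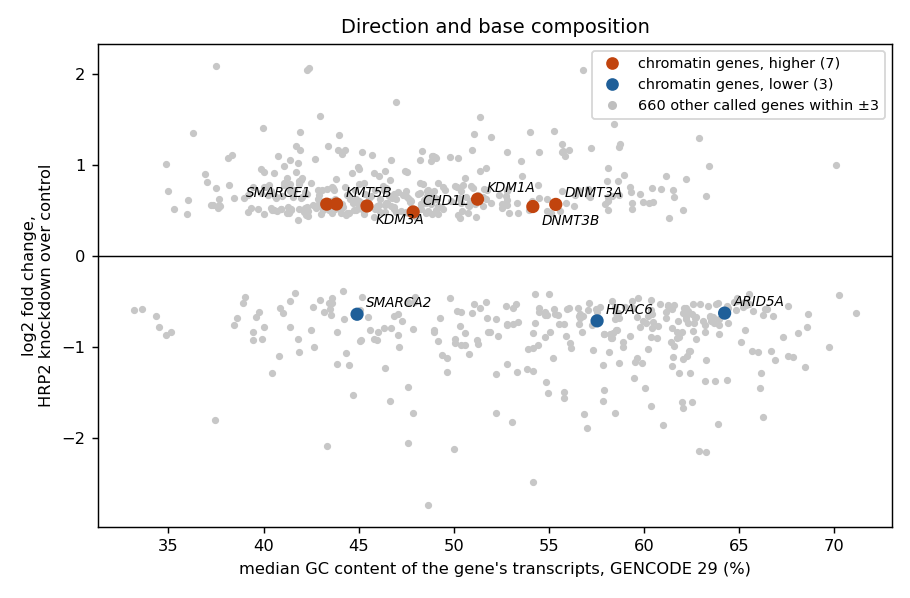
The authors' log2 fold change (HRP2 knockdown over control, vertical axis) is plotted against the median GC content of each gene's transcripts (horizontal axis, percent) for the 10 chromatin genes in colour and other called genes within a log2 fold change of 3 in grey. SMARCA2 stands apart from the other lower members at 44.9%, against 57.5% for HDAC6 and 64.2% for ARID5A.

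At the transcript level most changes were of another order of size. Of the 30 called transcripts, 18 (60%) were higher and 12 (40%) lower in the knockdown. Of all 1040 called transcripts, 530 (51.0%) were higher and 510 (49.0%) lower. The absolute log2 fold change was 6 or more for 28 of the 30 (93.3%), and for 823 of all 1040 called transcripts (79.1%). The median absolute log2 fold change was 9.21 for the members and 8.97 for all called transcripts. A change of at least 20 was found for 4 members (13.3%) and 77 of all called transcripts (7.40%). A log2 fold change of 6 or more leaves one group with almost none of the signal of the other, and without levels per library it cannot be told how abundant such a transcript was. Genes with a called transcript made up 14.5% of the 145 listed chromatin genes, where 3.61% of all listed mRNA genes had one. As above, nothing is read from that share. TET1, at a Q value of 0.0493, was the member transcript nearest to the limit.

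**Figure D3:**
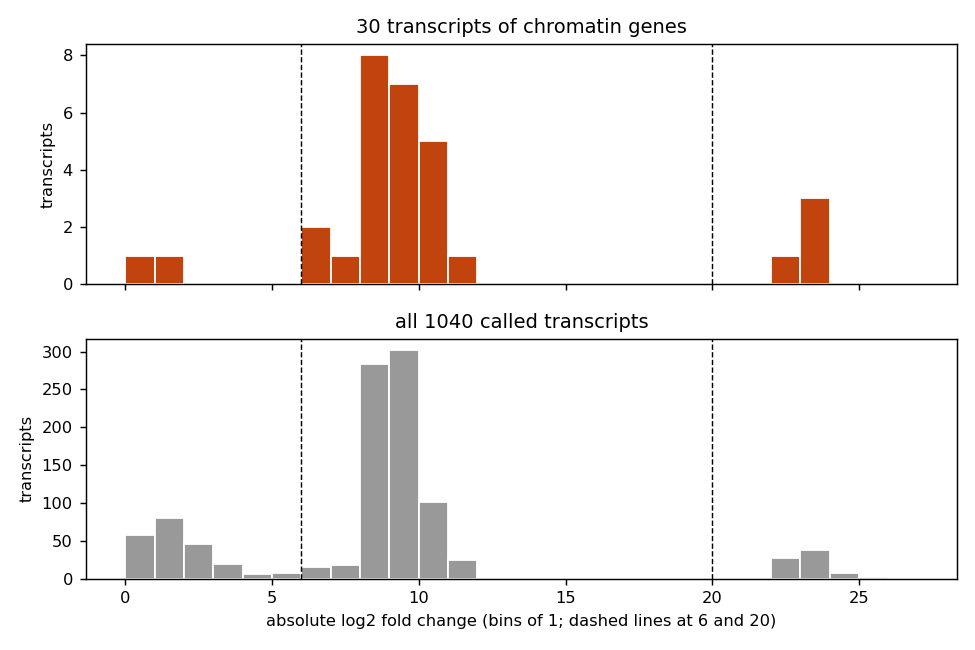
Histograms count transcripts by absolute log2 fold change in bins of 1, for the 30 transcripts of chromatin genes (upper panel) and all 1040 called transcripts (lower panel), with dashed lines at 6 and 20. Of the members, 2 lie under 6, 24 between 6 and 20, and 4 at 20 or more. Of all called transcripts, 217, 746 and 77 do.

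NSD2 had 3 called transcripts, and they did not go one way. The curated transcript NM_133335.3 was lower, with a log2 fold change of -7.41 (Q = 0.000365) in the authors' deposited transcript table. The predicted transcripts XM_005248002.3 and XM_005248005.3 were higher, at 10.69 (Q = 2.21e-07) and 23.89 (Q = 1.32e-08). In GENCODE 29 the curated one matches a form of 22 exons and 7534 bases that encodes 1365 amino acids, the longest product annotated among the 14 protein-coding of its 27 transcripts. Of its 31-nucleotide words, 99.6% occur in at least some other annotated transcript of NSD2, so few of them are found in this form alone. The accessions of both predicted transcripts are absent from the RefSeq table used here, and their structure is not given. NSD2 had no row in the gene table, and the transcript values do not give the change of its total output.

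Another 4 genes had called transcripts in both directions. BRD7, a bromodomain subunit of the PBAF form of SWI/SNF, had predicted transcripts at 10.20 (Q = 3.28e-06) and 10.15 (Q = 2.55e-05) and 1 at -9.30 (Q = 0.00045). EZH1, the EZH2 paralogue that methylates H3 lysine 27 in Polycomb complexes, had a curated transcript at 10.45 (Q = 8.94e-05) and predicted ones at 8.97 (Q = 0.00409) and -8.95 (Q = 0.00388). ARID4B, a subunit of Sin3 deacetylase complexes, had predicted transcripts at 9.38 (Q = 4.84e-06) and -9.42 (Q = 0.000226). CHD1L had 3 curated transcripts, at 10.40 (Q = 2.78e-06), -8.31 (Q = 0.0404) and -9.35 (Q = 0.00176), all log2 fold changes from the authors' deposited transcript table. Thus all 5 chromatin genes with more than 1 called transcript had them in opposite directions, and so did 88 of the 135 such genes overall (65.2%). In ARID4B, and in the predicted pair of EZH1, the opposed values were almost equal in absolute size. Those sizes lie near the median of 9.21 over the member transcripts, so nothing is read from their likeness.

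**Figure D4:**
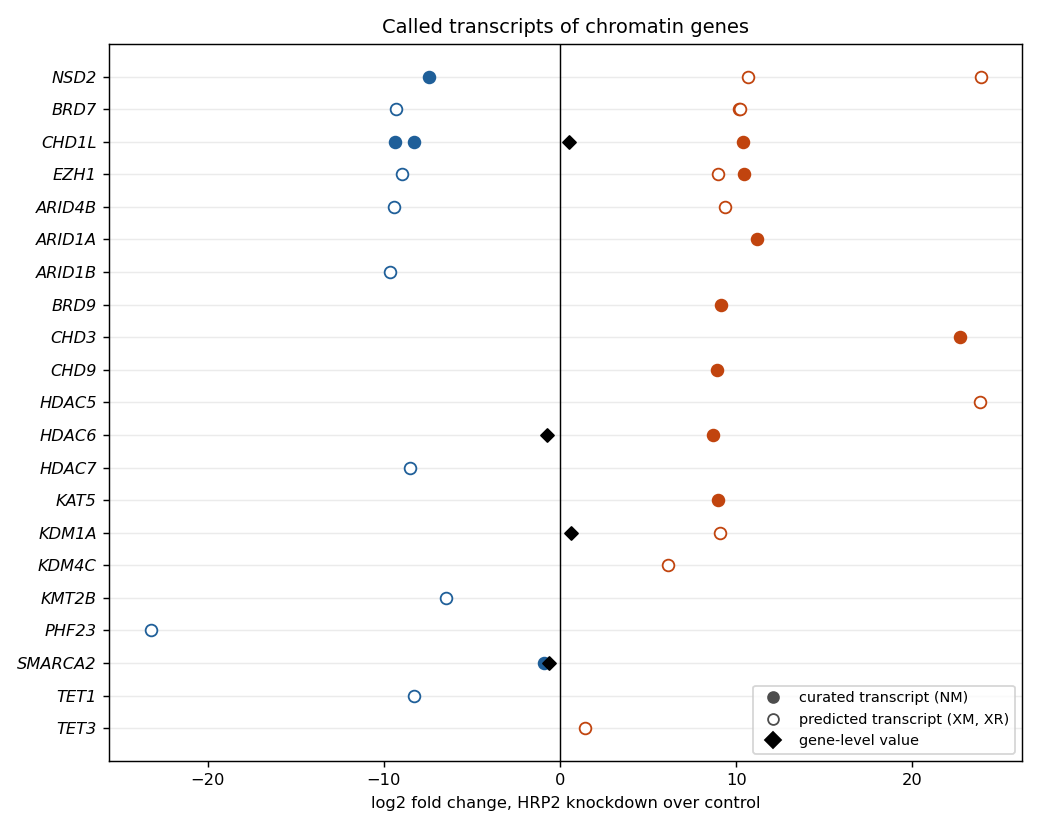
Each circle is 1 called transcript of the 21 chromatin genes at its log2 fold change (HRP2 knockdown over control, horizontal axis), filled for curated and open for predicted accessions, and a diamond marks the gene-level value where the gene was called. NSD2 and the other 4 genes with several transcripts have circles on both sides of 0, and of the 4 genes with a diamond only SMARCA2 has its circle beside it.

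Gene and transcript values could be set side by side for 4 genes. SMARCA2 was the 1 gene whose transcript value was close to the gene value: NM_003070.4 had a log2 fold change of -0.93 (0.524 times the control level, Q = 0.0113), against -0.64 for the gene. Its match in GENCODE 29 has 34 exons and encodes 1590 amino acids. KDM1A was higher at both levels, but its predicted transcript was at 9.09 (Q = 0.00687), against 0.63 for the gene. HDAC6 went in opposite directions, with the curated transcript NM_001321229.1 at 8.68 (Q = 0.0153) and the gene at -0.71. CHD1L had a gene value of 0.49 beside its transcript values of 10.40, -8.31 and -9.35. Both tables come from the same 4 libraries.

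The remaining 13 genes had 1 called transcript each and no gene value. In the authors' deposited transcript table the largest were HDAC5, a class IIa deacetylase gene, at 23.83 (Q = 1.66e-08), CHD3, which encodes an ATPase of the NuRD complex, at 22.73 (Q = 8.64e-07), and PHF23, a PHD finger gene, at -23.21 (Q = 6.3e-07). As above, such values leave a group with almost none of the signal of the other, so their order of size is not read. ARID1A, the SWI/SNF subunit gene often mutated in cancer, had a curated transcript at 11.18 (Q = 6.65e-07), and its paralogue ARID1B a predicted non-coding one at -9.63 (Q = 7.39e-05). KMT2B, an H3 lysine 4 methyltransferase gene, had a predicted transcript at -6.45 (Q = 2.26e-07). Higher transcripts between 6 and 10 belonged to BRD9, a bromodomain subunit of SWI/SNF, at 9.12, to KAT5, which encodes the TIP60 acetyltransferase, at 8.96, to CHD9 at 8.89 and to KDM4C, a demethylase of H3 lysine 9 and lysine 36, at 6.10. HDAC7 was lower at -8.51 and TET1, a 5-methylcytosine dioxygenase gene, at -8.29. Only TET3, a gene of the same family as TET1, had a transcript of modest change among these 13, at 1.42 (2.68 times the control level, Q = 0.0103).

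In annotation the 30 transcripts were much like all called transcripts. Curated accessions made up 12 of them (40%), predicted coding ones 15 (50%) and predicted non-coding ones 3 (10.0%), beside shares of 44.0%, 49.9% and 6.06% over all called transcripts. The accession stems of 12 (40%) are absent from the RefSeq table for GRCh38.p14, as are those of 34.0% of all called transcripts. Only 8 of the 30 matched a GENCODE 29 transcript, 7 of them with the same version. In these 8, between 96.2% (CHD3) and 100% (KAT5 and SMARCA2) of the 31-nucleotide words occur in another annotated transcript of the same gene. How far the assignment of reads among such forms enters the transcript values was not tested.

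Partner subunits and related chromatin genes outside the symbol pattern were followed through 13 lists of 302 genes. Of these, 12 (3.97%) were called in the authors' deposited gene table, where 2.81% of all listed mRNA genes were, with 7 higher and 5 lower. WDR77, the cofactor of the arginine methyltransferase PRMT5, was the highest at 2.25 times its control level (Q = 0.000601, log2 fold change 1.17), followed by PRDM10, a PR domain zinc finger gene, at 2.07 times (log2 fold change 1.05, Q = 0.0219). These were the 2 called of 18 arginine and other methyltransferase genes. PRMT5 itself was not in the table.

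The other lists had at most 2 called genes each. Among 16 further SWI/SNF genes, BCL11A, a zinc finger gene counted with that complex, was at 0.71 (Q = 0.0115) and ACTB, the β-actin gene, at 0.51 (Q = 0.0373) on the log2 scale in the authors' deposited gene table. Among 33 ISWI, INO80, SRCAP and other remodeler genes, RUVBL1, an AAA+ ATPase of INO80, SRCAP and TIP60 complexes, was at 0.67 (Q = 0.00956) and UCHL5, a deubiquitinase of both INO80 and the proteasome, at 0.52 (Q = 0.0219). Of 18 H3 lysine 36 genes HDGF, of the HRP2 family, was called at 0.49 (Q = 0.0334). PSIP1 and RIOX2, which were followed by name, were not in the table. The lower genes, each the 1 called of its list, were JMJD8 at -0.72 (of 13 JmjC and related genes), the linker histone gene H1FX at -0.63 (of 33 chaperone and variant genes), IDH1, whose product makes the 2-oxoglutarate used by TET and JmjC enzymes, at -0.59 (of 19), the Polycomb gene PCGF5 at -0.58 (of 32) and USP22, the deubiquitinase of SAGA, at -0.53 (of 51). No gene was called from the H3 lysine 9 and H4 lysine 20 list (12 genes), the COMPASS, DOT1L and MLL list (21) or the list of other bromodomain genes (15).

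**Figure D5:**
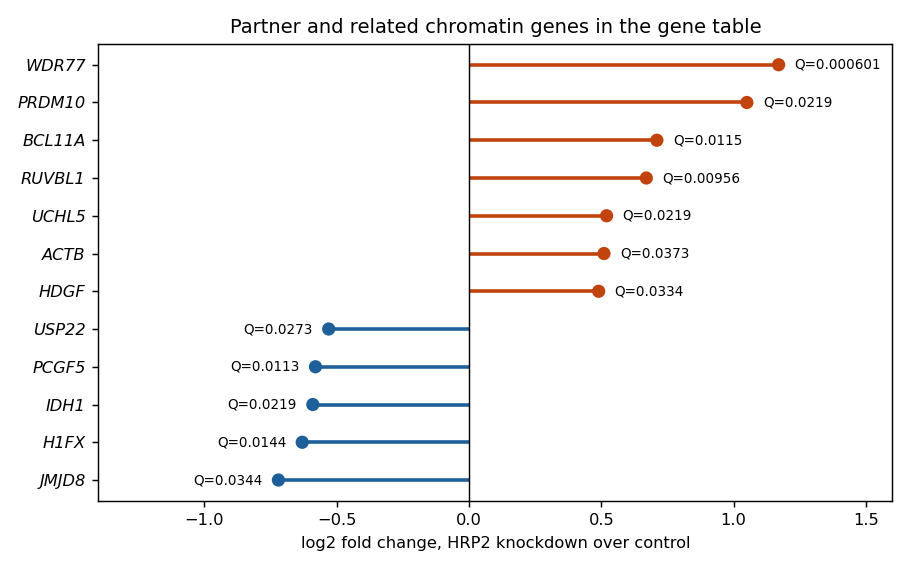
The authors' log2 fold change (HRP2 knockdown over control, horizontal axis) of the 12 called genes from the lists of partner and related chromatin genes, with Q values beside the points. WDR77 and PRDM10 lie above 1, and the 5 lower genes lie between -0.72 and -0.53.

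Transcripts of these lists were also called in both directions. There were 51 called transcripts from 43 of the 302 genes, where 3.61% of all listed mRNA genes had one. Of the 51, 26 were higher and 25 lower. An absolute log2 fold change of 6 or more was found for 39 of them, and for 79.1% of all called transcripts. Among 7 genes with more than 1 called transcript, 3 had them in both directions, where 88 of the 135 such genes in all did (65.2%). The lists were chosen with earlier results of these data known, so nothing is read from these counts. By Q value the leading ones in the authors' deposited transcript table were those of MTF2, a Polycomb accessory gene that also binds methylated H3 lysine 36, at 11.02 (Q = 3.65e-08), AFF4 of the super elongation complex at 11.29 (Q = 4.08e-08), HLTF, a SWI/SNF-related helicase gene, at 7.26 (Q = 1.36e-07), and TBL1XR1, of corepressor complexes, at 23.06 (Q = 2.13e-07). The next by Q value were lower, those of SAP130 at -10.47 (Q = 5.58e-07) and YEATS2 at -10.54 (Q = 6.3e-07). Others are named without regard to their rank. HDGF had a transcript at 0.69 (Q = 0.0114), close to its gene value, and another at -9.73 (Q = 9.8e-05). ASH1L, an H3 lysine 36 methyltransferase gene, had a transcript at -7.69 (Q = 0.00829). CREBBP, an acetyltransferase gene, had 1 at 24.30 (Q = 0.00011), and PBRM1, the gene of the PBAF subunit BAF180, had 2, at -8.64 (Q = 0.0113) and -8.57 (Q = 0.032).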

How the data were processed

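RNA sequencing libraries of LP-1 cells, 2 with HRP2 knockdown and 2 with a non-target control, were made from Trizol-extracted RNA, per the labels. BWA, Bowtie2, RSEM and hg19 are named in the submitters' processing notes without their roles. For versions, annotation, strandedness, filters, normalization and the statistical test the answer is the same: not given in the sources used here.

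The log2 fold changes (knockdown over control) were computed by the authors, per the file headers, and the Q value beside each is as deposited by the authors. The tables hold called rows only, all with a Q value under 0.05. Other deposited fields are names, used to match symbols. No value per library entered any step, so the tests planned on counts or expression values were not run, depth is unknown, and the values are described without a test. The members and gene lists were chosen with earlier results of these data known.

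Called members were counted, and medians taken, beside all called rows, with Python 3.11.15 and pandas 2.3.3. Named genes are all member genes, all genes with a member transcript and all list genes in the gene table. List transcripts named are the leading ones by Q value and some others not chosen by rank. Calendar-date symbols were left out of counts per gene. GC content is the median over the protein-coding transcripts of a gene in GENCODE 29. Shared sequence is the percent of 31-nucleotide words found in another gene or another transcript of the gene. A gene left out of the partner lists is not reported here. Promoters are the first start listed in RefSeq, GRCh38.p14.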

Additional observations from a re-analysis of the deposited data

How the results depend on the processing

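The counts depended on the limits set on the authors' values. With a Q value under 0.01 there were 4 called chromatin genes, 2 higher (KDM1A and KMT5B) and 2 lower (ARID5A and SMARCA2), in place of 10, and 2 called genes of the partner lists in place of 12. At an absolute change of 1 or more on the log2 scale there were 0 chromatin genes. Of the member transcripts 2 (TET3 and SMARCA2) had an absolute log2 fold change under 6, in place of 30, and then 0 genes had transcripts in both directions. For the partner lists 12 transcripts in place of 51 were under 6. With curated accessions alone there were 12 member transcripts, and 1 gene (CHD1L) in place of 5 had both directions. Counts stayed within 1.5 times for the genes without shared sequence (9) or with synonyms matched too (13), and for the transcripts with a Q value under 0.01 (24), without changes of 20 or more (26) or with synonyms (45). With synonyms, 10 genes were higher and 3 lower, in place of 7 and 3. Of the transcripts 25 were then higher and 20 lower, in place of 18 and 12. No paired analysis was possible because no values per library were used here. For the same reason leaving out a library, another normalization and another filter were not run. Without levels or depths, a transcript near the detection limit cannot be told from an abundant one.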
